A study of Homo sapiens with 9 samples.

Results

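Amino acid transporter genes were followed in UPCI-SCC-040, an established oral squamous cell carcinoma line derived from tongue, before and after exposure to transforming growth factor β1 (TGF-β1). The genes were chosen by name, with earlier results of these data known. The rule took every protein-coding gene whose GENCODE release 29 symbol begins with SLC1A, SLC3A, SLC6A, SLC7A, SLC36A, SLC38A or SLC43A, leaving out 1 SLC7A gene that is not analysed here. This gave 59 genes of the 58233 identifiers in the count tables, and 31 of them passed the filter on low counts, among 15440 genes tested in all. The prefixes also take in genes that do not carry amino acids. SLC7A6OS is the opposite-strand neighbour of SLC7A6 and no transporter, SLC6A2, SLC6A3 and SLC6A4 carry monoamines, SLC6A8 carries creatine and SLC43A3 carries nucleobases.

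Total RNA was sequenced from 9 libraries in 3 groups of 3. Control cells received no TGF-β1 and are titled 0 h. The other groups received TGF-β1 at 5 ng/ml for 48 h or for 72 h in medium that lacked fetal bovine serum and antibiotics. Routine growth medium held serum, stable glutamine and added nonessential amino acids, and the labels do not say whether controls were kept in serum. The effects of TGF-β1, of serum-free medium and of longer culture therefore cannot be told apart in any comparison with control. Replicates 1, 2 and 3 of each group came from passages 12, 13 and 8, and values are listed in that order throughout. The labels do not say that libraries came from separate cultures beyond their passage, so p-values measure the spread between these libraries only, which may be partly technical. All of them come from 1 line.

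Cells take up amino acids through carriers that differ in their substrates and in what drives them. Sodium-coupled carriers such as the system A members SLC38A1, SLC38A2 and SLC38A4 load the cell with small neutral amino acids. Exchangers such as SLC1A5 and the heterodimer of SLC7A5 with its heavy chain SLC3A2 then trade one amino acid for another, and the latter brings in leucine and other large neutral amino acids. Carriers in the lysosomal membrane, among them SLC36A1, SLC38A7 and SLC38A9, export amino acids from the lysosome, and SLC38A9 also reports arginine to the growth kinase complex mTORC1. When amino acids run short, the transcription factor ATF4 raises many of the uptake genes through a promoter element first known from the asparagine synthetase gene ASNS.

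That element was looked for as the letters TGATGNAAN on both strands, in windows from 250 bases before to 50 bases after RefSeq transcript starts (GRCh38.p14). RefSeq windows were found for 45 of the 59 genes, 67 windows in all, and 6 genes held a match. Matches stood in 8.96% of these windows and in 3.61% of all 35116 windows of the same length. Among the windows of the genes higher after TGF-β1, 8.33% held one (SLC1A4 and SLC38A1), against 12.5% of the windows of all tested genes of the set. The matches are printed with 10 bases on either side where the window reaches that far, so that the letters of the 6 genes can be compared with those of ASNS, the reference gene. Each is read 5′ to 3′ on the strand of its gene, with the match in capitals.
SLC1A4: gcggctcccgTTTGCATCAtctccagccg
SLC1A5: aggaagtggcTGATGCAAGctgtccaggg
SLC38A1: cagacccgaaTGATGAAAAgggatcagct
SLC3A2: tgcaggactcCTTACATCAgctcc
SLC7A1: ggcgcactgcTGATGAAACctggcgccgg
SLC1A3: aggaaatgacTGATGCAAAgcagggttaa
ASNS: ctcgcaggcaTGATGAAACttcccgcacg

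The printed bases lie at chr2:64989381-64989409 (SLC1A4, plus strand), chr19:46784893-46784921 (SLC1A5, minus strand), chr12:46266502-46266530 (SLC38A1, minus strand), chr11:62881725-62881748 (SLC3A2, plus strand), chr13:29595663-29595691 (SLC7A1, minus strand), chr5:36596358-36596386 (SLC1A3, plus strand) and chr7:97872458-97872486 (ASNS, minus strand). SLC1A4 and SLC3A2 hold the reverse complement of the letters. SLC7A1 and ASNS share the same 9 letters, TGATGAAAC. The match of SLC3A2 and that of SLC7A1 lie after the transcript start, and those of SLC1A5, SLC1A3 and ASNS lie before it. The 9-letter matches of SLC1A4 and SLC38A1 begin 8 and 4 bases before the start and run over it. Some of these starts are not the outermost start of the gene. A match describes the letters only and is no measure of binding.

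Library totals ranged from 12544690 to 20438727 counts. In a principal component analysis the first component took 59.6% of the variance and separated controls, at -75.18 to -63.66, from treated libraries, at 9.129 to 84.36. The 72 h replicate 3 library stood apart from the others: the nuclear RNA MALAT1 took 1.54% of its counts against 0.409% to 0.437% in the other 72 h libraries, and ribosomal protein genes took 1.04% against 1.6% to 1.85%. All 12 squamous epithelial markers were detected in each group, with a summed level of 14830 to 25439 CPM (counts scaled to a common library total after TMM correction) in the control libraries, 37553 to 44187 CPM in those of 48 h and 29700 to 38814 CPM in those of 72 h. Summed fibroblast markers reached at most 1 CPM in controls, 18.2 at 48 h and 22.4 at 72 h, and 3, 1 and 1 of the 6 markers were at 0 in these groups. Leukocyte, endothelial and neural markers summed to at most 3.09 CPM in any library. In bulk RNA, fewer cells of a type and less RNA per cell cannot be told apart.

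After TGF-β1 more of the tested transporter genes were higher than lower. At 48 h 9 of 31 rose and 1 fell (edgeR quasi-likelihood test, Benjamini-Hochberg adjusted p under 0.05 over all 15440 genes), where 14.9% of all tested genes rose and 16.0% fell. At 72 h 14 rose and 1 fell, against 20.4% and 19.4% of all tested genes. The median log2 fold change of the 31 genes was 0.70 at 48 h and 0.87 at 72 h, and over all genes it was 0.00 and 0.03. Both comparisons use the same 3 controls. SLC7A8, SLC36A1, SLC38A1, SLC38A2, SLC38A9, SLC38A10, SLC6A6 and SLC6A9 rose at both times and SLC43A2 fell at both. SLC38A5 passed only at 48 h, and SLC1A2, SLC1A4, SLC6A11, SLC7A7, SLC38A4 and SLC38A7 passed only at 72 h. The difference between the times did not pass the test for any of them.

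**Figure D1:**
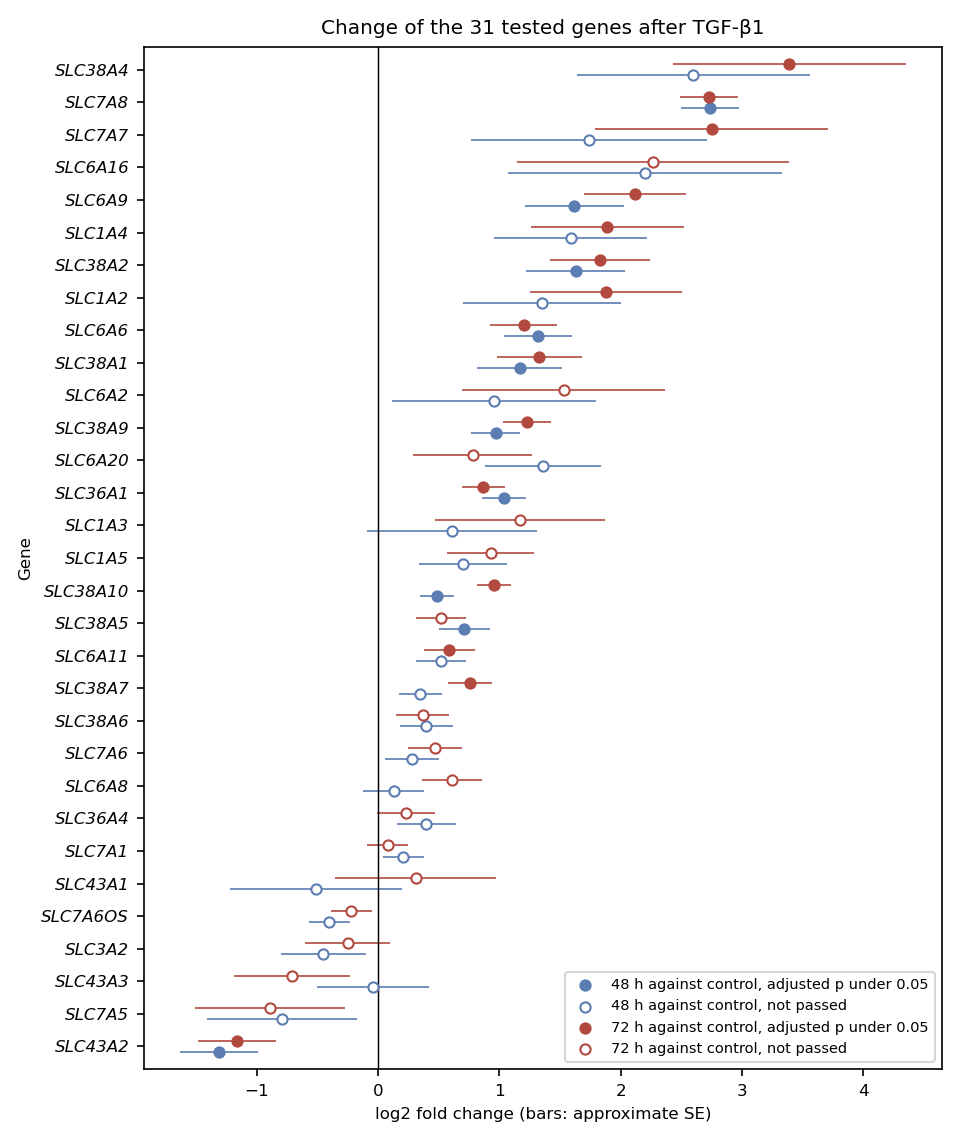
Log2 fold change against control of each of the 31 tested genes at 48 h and at 72 h, with bars of 1 approximate standard error (SE). Filled points passed an adjusted p of 0.05 and open points did not. SLC7A8 stands at 2.74 and 2.73 with short bars, SLC38A4 at 2.60 and 3.39 with long ones, and SLC43A2 is the filled gene on the lower side.

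By the range of libraries, all 3 treated libraries lay above all 3 controls for 11 of the 31 genes at 48 h (25.6% of all tested genes did so) and for 20 at 72 h (27.3%). They lay below for 2 genes at 48 h (28.1%) and for 1 at 72 h (27.7%). The counts of calls depended on single libraries. Without control replicate 1, 2 or 3 the number higher at 48 h was 4 each time, and without 48 h replicate 1 it was 5. The number higher at 72 h became 9, 8 and 9 without control replicate 1, 2 and 3, and it was 15 without the 72 h replicate 3 library that stood apart. The share of all tested genes called at 72 h, 39.8% in the main fit, was 27.0%, 25.9%, 28.5% and 36.2% in these fits. Of the 31 genes, 5 averaged under 1 CPM in controls, 3 of them among the 14 higher at 72 h, so that these could be tested mainly through the treated libraries.

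SLC7A8 encodes LAT2, a light chain that pairs with SLC3A2 and exchanges neutral amino acids (chr14:23125295-23183674, minus strand, hg38). It had the lowest adjusted p of the set in both comparisons with control. Its level was 14.9, 12.0 and 15.9 CPM in controls, 95.7, 81.0 and 109 CPM at 48 h and 96.0, 65.1 and 123 CPM at 72 h. All 6 treated libraries lay above all 3 controls, and the changes within the 3 passages were near one another. The log2 fold change was 2.74 ± 0.24 (SE) at 48 h (adjusted p = 0.000318) and 2.73 ± 0.24 at 72 h (adjusted p = 0.000195), a 6.67-fold and a 6.63-fold difference. Both calls held without any 1 library.

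SLC7A5 encodes LAT1, the other main light chain for large neutral amino acids, and SLC3A2 the heavy chain 4F2hc that both light chains need at the surface. Neither passed the test in either comparison. SLC7A5 stood at 974, 1160 and 1005 CPM in controls, 1110, 410 and 298 CPM at 48 h and 517, 990 and 190 CPM at 72 h. Treated libraries from 190 to 1110 CPM thus overlapped with the narrow control range, and the fold changes had wide errors: -0.79 ± 0.62 at 48 h (adjusted p = 0.364) and -0.89 ± 0.62 at 72 h (adjusted p = 0.281). SLC3A2 stood at 588, 788 and 660 CPM in controls, 816, 298 and 380 CPM at 48 h and 471, 712 and 524 CPM at 72 h. Its log2 fold change was -0.45 ± 0.35 (adjusted p = 0.352) and -0.25 ± 0.35 (adjusted p = 0.581). Without 48 h replicate 1, the treated library in which both genes were highest, SLC3A2 was lower at 48 h with an adjusted p of 0.0253.

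The remaining heterodimer light chains and the arginine carrier differed in level. SLC7A7, a light chain for the exchange of cationic and neutral amino acids, stood at 0.844, 0.698 and 0.788 CPM in controls, 2.04, 0.551 and 5.38 CPM at 48 h and 2.71, 1.42 and 11.7 CPM at 72 h. It rose at 72 h, by 2.75 ± 0.96 (adjusted p = 0.0485), and its value in 72 h replicate 3 was far above those of the other libraries. That call was lost with no filter on low counts (adjusted p = 0.196), and without control replicate 1, 2 or 3 (adjusted p = 0.122, 0.136 and 0.119), without 48 h replicate 1 (0.0663) or without 72 h replicate 3 (0.184). At 48 h the change was 1.74 ± 0.97 (adjusted p = 0.205).

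SLC7A1, the main arginine and lysine carrier CAT1, was at 157, 162 and 160 CPM in controls, 230, 159 and 165 CPM at 48 h and 183, 186 and 139 CPM at 72 h. Its changes of 0.21 ± 0.17 (adjusted p = 0.388) and 0.08 ± 0.17 (adjusted p = 0.735) did not pass. SLC7A6, a further light chain, was at 26.9, 25.8 and 27.5 CPM in controls, 39.1, 27.4 and 30.6 CPM at 48 h and 44.4, 42.3 and 24.3 CPM at 72 h. It did not pass either (0.28 ± 0.22, adjusted p = 0.371, and 0.47 ± 0.22, adjusted p = 0.117), although without 72 h replicate 3 its 72 h adjusted p was 0.00629. SLC7A6 and SLC7A6OS share 3371 exon bases on opposite strands, 44.4% of the exons of SLC7A6, and the strand setting of the counting is not given in the sources used here, so reads of the pair may be mixed.

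The largest gain in level was that of a system A gene. SLC38A2, which encodes SNAT2, lies at chr12:46358189-46372867 on the minus strand, in 1 stretch of chromosome 12 with SLC38A1 and SLC38A4. It stood at 1123, 1192 and 1132 CPM in controls, 4612, 1726 and 4327 CPM at 48 h and 3130, 2776 and 6345 CPM at 72 h. Each treated library exceeded each control, by very different amounts. The log2 fold change was 1.63 ± 0.41 at 48 h (adjusted p = 0.0158) and 1.83 ± 0.41 at 72 h (adjusted p = 0.00734). The 48 h call was lost without control replicate 1, 2 or 3 (adjusted p = 0.0577, 0.0562 and 0.0562) or without 48 h replicate 1 (0.0598), and the 72 h call was kept without any 1 library. That 72 h call was lost without replicate 1 of every group (0.0569) or without replicate 3 of every group (0.0502).

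SLC38A1, encoding SNAT1, was at 273, 262 and 248 CPM in controls, 986, 364 and 413 CPM at 48 h and 572, 810 and 590 CPM at 72 h. It rose by 1.17 ± 0.35 at 48 h (adjusted p = 0.0305) and 1.33 ± 0.35 at 72 h (adjusted p = 0.0146), with no overlap between treated and control libraries. The 48 h call was lost without control replicate 1, 2 or 3 (adjusted p = 0.0815, 0.0917 and 0.0946) or 48 h replicate 1 (0.0671), and the 72 h call without control replicate 2 (0.052) or 3 (0.0528). SLC38A4, encoding SNAT4, was low in this line: 0.482, 0.376 and 1.5 CPM in controls, 3.84, 1.04 and 9.29 CPM at 48 h and 5.41, 3.02 and 15.7 CPM at 72 h. In each group its passage 8 library was the highest, controls included. Its log2 fold change was 2.60 ± 0.96 at 48 h (adjusted p = 0.0705) and 3.39 ± 0.96 at 72 h (adjusted p = 0.023). With the replicate number as a block, which compares libraries within a passage, SLC38A4 also passed at 48 h (adjusted p = 0.00112). Its 72 h call without the block was lost with no filter on low counts (0.111) and without control replicate 1 (0.0832), control replicate 2 (0.0858) or 72 h replicate 3 (0.0603), and at 48 h it passed with DESeq2 (0.0316), with only the 2 groups compared (0.0499) and without 48 h replicate 2 (0.0354) or 72 h replicate 3 (0.038).

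The ASC exchangers SLC1A4 and SLC1A5 trade small neutral amino acids, and SLC1A5 is the glutamine exchanger ASCT2. SLC1A4 was at 7.78, 7.03 and 9.24 CPM in controls, 40.9, 18.3 and 13.0 CPM at 48 h and 22, 56.9 and 10.4 CPM at 72 h. All treated libraries lay above the controls, but those of passage 8 only by little. SLC1A4 rose at 72 h, by 1.89 ± 0.63 (adjusted p = 0.0436), and its 48 h change of 1.59 ± 0.63 did not pass (adjusted p = 0.0881). With the replicate block the 72 h adjusted p was 0.0959. The 72 h call was also lost with no filter on low counts (0.176) and without control replicate 1, 2 or 3 (adjusted p = 0.117, 0.125 and 0.0938), 48 h replicate 2 (0.0573), 72 h replicate 1 (0.0562) or 72 h replicate 2 (0.144), while the 48 h change passed with DESeq2 (0.0166), with only the 2 groups compared (0.0209) and without 72 h replicate 2 (0.0329) or 72 h replicate 3 (0.0361).

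SLC1A5 was at 147, 202 and 176 CPM in controls, 446, 204 and 201 CPM at 48 h and 323, 457 and 217 CPM at 72 h. At 48 h 1 library was far above the rest and the others stood at the top of the control range. Its changes of 0.70 ± 0.36 (adjusted p = 0.165) and 0.93 ± 0.36 (adjusted p = 0.0658) did not pass. Without 48 h replicate 1 (adjusted p = 0.0226) or 72 h replicate 3 (0.0305) it was higher at 72 h, as it was with DESeq2 (0.0328), with only the 2 groups compared (0.0328) and with no filter on low counts (0.00398, and 0.0481 at 48 h).

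**Figure D2:**
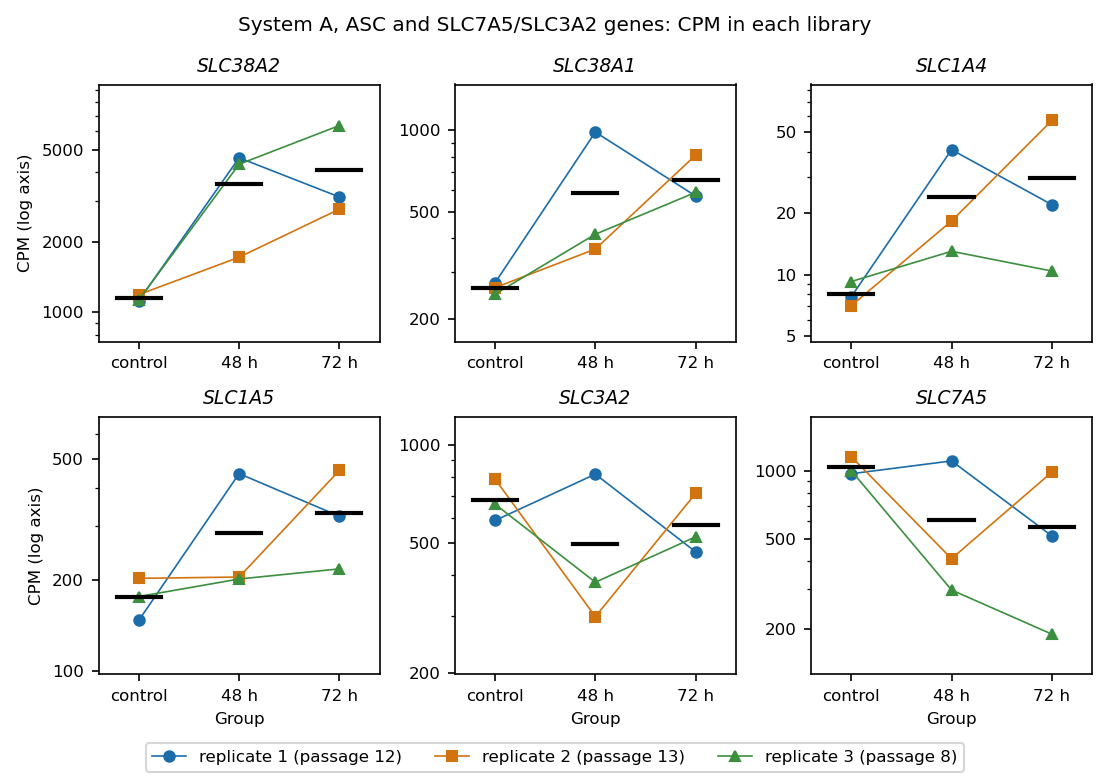
CPM of 6 uptake genes in each library on log axes, with lines joining libraries of the same passage and black ticks at the group means. The 48 h replicate 1 library is the highest 48 h library in all 6 panels, and SLC7A5 spans 190 to 1110 CPM among treated libraries against 974 to 1160 in controls.

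The glutamate carriers SLC1A2 (EAAT2) and SLC1A3 (EAAT1) clear glutamate from the extracellular space in brain. SLC1A3 was at 25.0, 24.6 and 31.5 CPM in controls, 38.4, 17.2 and 68.1 CPM at 48 h and 53.4, 14.0 and 115 CPM at 72 h. Passage 13 went below its own control at both times and the other passages above, and neither change passed (0.61 ± 0.70, adjusted p = 0.542, and 1.17 ± 0.70, adjusted p = 0.213). Without 72 h replicate 2 SLC1A3 was higher at 72 h (adjusted p = 0.0432). SLC1A2 was near the limit of detection, at 0.482, 0.268 and 0.573 CPM in controls, 1.20, 0.429 and 1.79 CPM at 48 h and 1.35, 0.741 and 2.78 CPM at 72 h. It rose at 72 h, by 1.88 ± 0.63 (adjusted p = 0.038), and with the replicate block also at 48 h (adjusted p = 0.0308, against 0.138 without the block). The 72 h call was lost without control replicate 1, 2 or 3 (adjusted p = 0.0912, 0.133 and 0.0693), 48 h replicate 1 (0.0559), 72 h replicate 1 (0.0527) or 72 h replicate 3 (0.123).

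The lysosomal carriers SLC38A9 and SLC36A1 rose at both times, and in every passage each treated library lay above its own control. SLC38A9, the arginine-sensing carrier, was at 23.0, 21.2 and 23.6 CPM in controls, 41.0, 42.8 and 48.8 CPM at 48 h and 41.3, 45.2 and 72.2 CPM at 72 h. It rose by 0.97 ± 0.20 (adjusted p = 0.00696) and 1.23 ± 0.20 (adjusted p = 0.00177). SLC36A1, the proton-coupled carrier PAT1, was at 13.7, 12.6 and 12.4 CPM in controls, 26.8, 30 and 22.6 CPM at 48 h and 23.5, 18.3 and 29 CPM at 72 h. Its rise was 1.04 ± 0.18 (adjusted p = 0.00367) and 0.87 ± 0.18 (adjusted p = 0.00534). Treated and control libraries did not overlap for either gene, and all 4 calls were kept without any 1 library. Without replicate 1 of every group both SLC36A1 calls were lost (adjusted p = 0.0705 at 48 h and 0.0599 at 72 h). The 48 h call of SLC38A9 was lost without replicate 1 (0.0646) or replicate 2 (0.0711) of every group. SLC38A7, a lysosomal glutamine carrier, was at 13.3, 16.3 and 13.5 CPM in controls, 20.1, 18.9 and 15.9 CPM at 48 h and 21.1, 22.2 and 29.9 CPM at 72 h. It rose at 72 h, by 0.76 ± 0.18 (adjusted p = 0.00784), a call kept without any 1 library, and not at 48 h (0.35 ± 0.18, adjusted p = 0.159). The 72 h call of SLC38A7 was lost without replicate 1 of every group (0.0549).

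SLC38A10 and SLC38A5 are the other SLC38 genes that passed. SLC38A10, a broadly expressed carrier of this family, was at 95.0, 84.5 and 90.9 CPM in controls, 133, 129 and 117 CPM at 48 h and 146, 200 and 181 CPM at 72 h. The 3 groups did not overlap: each 48 h library lay above the controls and each 72 h library above those of 48 h. It rose by 0.49 ± 0.14 at 48 h (adjusted p = 0.0239) and 0.96 ± 0.14 at 72 h (adjusted p = 0.00101). The 48 h call was lost without control replicate 1, 2 or 3 (adjusted p = 0.0601, 0.0975 and 0.0741), 48 h replicate 1 (0.082) or 48 h replicate 2 (0.0609). SLC38A5, the system N carrier SNAT5 on the X chromosome, was at 99.5, 104 and 106 CPM in controls, 218, 152 and 136 CPM at 48 h and 184, 145 and 114 CPM at 72 h. It passed at 48 h (0.71 ± 0.21, adjusted p = 0.0283) and, with the replicate block, at 72 h (adjusted p = 0.0473, against 0.0738 for a change of 0.52 ± 0.21 without the block). Its 48 h call was lost without control replicate 1, 2 or 3 (adjusted p = 0.0925, 0.0869 and 0.0768) or 48 h replicate 1 (0.111), and at 72 h it passed without 48 h replicate 1 (0.0469) or 72 h replicate 3 (0.0194).

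Among SLC6 genes the glycine carrier SLC6A9 (GLYT1) had the largest change that passed. It was at 35.3, 38.4 and 37.7 CPM in controls, 191, 64.5 and 88.4 CPM at 48 h and 100, 159 and 224 CPM at 72 h. Treated libraries lay above controls without overlap and differed widely among themselves. The change was 1.62 ± 0.41 at 48 h (adjusted p = 0.019) and 2.12 ± 0.42 at 72 h (adjusted p = 0.0052). The 48 h call ended in the fit with the replicate block (adjusted p = 0.0526) and when control replicate 1, 2 or 3 was left out (0.0656, 0.0634 and 0.0599), and the 72 h call was kept without any 1 library. Exons of SLC6A9 overlap those of CCDC24 on the other strand over 7.83% of their length.

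SLC6A6, the taurine carrier, was at 36.1, 40.3 and 47.7 CPM in controls, 101, 78.7 and 130 CPM at 48 h and 96.3, 59.4 and 130 CPM at 72 h. It rose by 1.32 ± 0.28 (adjusted p = 0.00871) and 1.20 ± 0.28 (adjusted p = 0.00922), calls kept without any 1 library. Both calls were lost without replicate 1 of every group (0.123 and 0.108). The GABA carrier SLC6A11 was at 19.0, 14.6 and 17.9 CPM in controls, 25.8, 26.5 and 21.3 CPM at 48 h and 34.4, 19.9 and 23.3 CPM at 72 h. Its treated libraries lay above the controls by a small margin, and it passed at 72 h alone (0.59 ± 0.21, adjusted p = 0.0472, against 0.52 ± 0.21, adjusted p = 0.0874, at 48 h). The 72 h call was lost with only the 2 groups compared (adjusted p = 0.0735), without any 1 of the 3 controls (adjusted p = 0.0756, 0.164 and 0.0972), any 1 of the 48 h libraries (0.067, 0.0591 and 0.0531) or 72 h replicate 1 (0.162), and at 48 h it passed with no filter (0.0451), with only the 2 groups compared (0.0172) and without 72 h replicate 1 (0.0348). In the replicate block, the proline carrier SLC6A20 passed at 48 h (adjusted p = 0.0351, against 0.0566) and the creatine carrier SLC6A8 at 72 h (adjusted p = 0.0343, against 0.0762). SLC6A20 and SLC6A8 were not among the genes chosen to be named with full values, and were added because the block changed their call.

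SLC43A2 was the gene that fell. It encodes LAT4, a facilitative carrier for branched-chain amino acids, methionine and phenylalanine, at chr17:1569267-1628886 on the minus strand. It was at 10.6, 13.2 and 13.9 CPM in controls, 3.59, 6.13 and 5.46 CPM at 48 h and 5.52, 3.3 and 8.03 CPM at 72 h. Every treated library lay below every control. The change was -1.31 ± 0.32 at 48 h (adjusted p = 0.0137) and -1.16 ± 0.32 at 72 h (adjusted p = 0.0167). Its call at 48 h was lost without 48 h replicate 1 (adjusted p = 0.0579) and the 72 h call without control replicate 2 (0.0543) or 3 (0.0549). SLC43A1, the related carrier LAT3, was at 0.422, 0.967 and 0.645 CPM in controls and between 0.163 and 1.77 CPM in treated libraries, and its changes did not pass (-0.51 ± 0.71, adjusted p = 0.615, and 0.31 ± 0.66, adjusted p = 0.733).

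**Figure D3:**
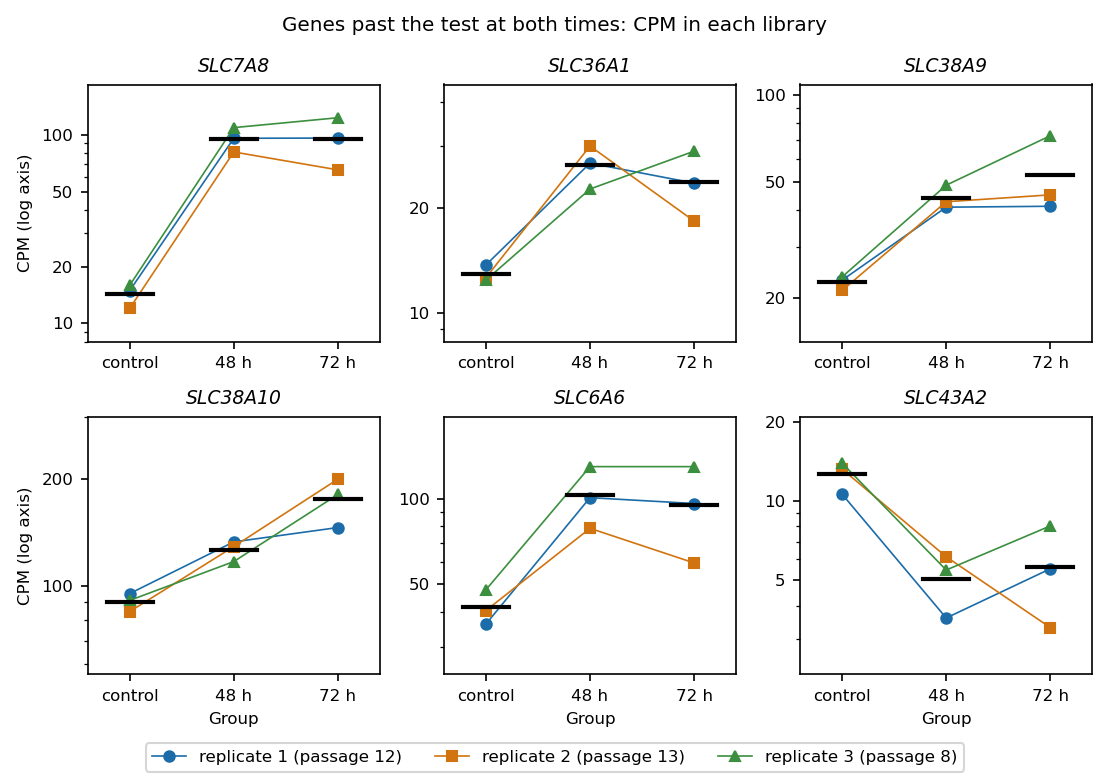
CPM in each library, on log axes, of 6 genes that passed at both times, with lines joining libraries of the same passage and black ticks at the group means. In each panel the treated libraries do not overlap with the controls. SLC7A8 goes from 12.0 to 15.9 CPM in controls to 65.1 to 123 CPM in treated libraries, and SLC43A2 falls from 10.6 to 13.9 CPM to 3.3 to 8.03 CPM.

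The other tested genes are SLC6A2, SLC6A16, SLC36A4, SLC38A6, SLC43A3 and SLC7A6OS, none of which passed in either comparison with control. The 28 genes that failed the filter were close to silent in all groups, apart from SLC6A12 at 72 h. Of the 28, 4 had no count in any library, with SLC6A5, SLC7A3 and SLC7A10 among these, and 23 had under 20 counts in all 9 libraries together. A total of 0 among 149672121 counts allows a level of up to 0.02 CPM, counting 3 reads as the limit and covering counting error only. SLC6A14, a broad carrier of neutral and cationic amino acids found in several epithelia, had 3 counts. The remaining 5 were SLC1A1 with 28 counts, SLC6A4 with 45, SLC3A1 with 46, SLC7A4 with 59 and the betaine carrier SLC6A12 with 129. Of the SLC6A12 counts, 106 came from 72 h replicate 3, where it stood at 6.55 CPM.

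Between 48 h and 72 h no transporter gene passed the test (0 of 31), and of all 15440 genes 0 passed (percent called 0). At an unadjusted p under 0.05 there were 2 transporter genes and 1382 genes in all, and DESeq2 called none of the former and 39 of the latter. The 72 h libraries all lay above the 48 h libraries for SLC38A10 and SLC38A7, 2 of 31 genes, as they did for 7.07% of all tested genes, and below them for 0 of 31 genes, against 5.17% of all. SLC38A10 changed by 0.48 ± 0.14 (unadjusted p = 0.00592, adjusted p = 0.466) and SLC38A7 by 0.41 ± 0.17 (adjusted p = 0.544). Data for this comparison were simulated from the mean level of each gene over all 9 libraries and the fitted spread. On these the test recovered 71.2% of 4-fold and 22.4% of 2-fold changes, so that moderate differences would often be missed.

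Levels of different genes can be compared per kilobase of merged exons. In controls SLC7A5 was the highest, at 220 ± 21 CPM per kilobase (SD, n = 3), followed by SLC38A2 at 174 ± 5.69, SLC3A2 at 131 ± 19.6, SLC1A5 at 52.5 ± 8.34, SLC38A1 at 26.1 ± 1.24 and SLC38A5 at 25.7 ± 0.848. The first 4 of these were set apart by more than their SD, whereas SLC38A1 and SLC38A5 were not. At 48 h SLC38A2 led with 538 ± 241 CPM per kilobase and SLC7A5 stood at 128 ± 92.8. At 72 h SLC38A2 was at 619 ± 298 and SLC7A5 at 119 ± 84.8, so SLC38A2 was the most abundant transcript of the set in both treated groups. The next in order, SLC7A5, SLC3A2 and SLC1A5, stood within 1 SD of one another at both times. SLC7A8 went from 2.38 ± 0.336 to 15.9 ± 2.32 and 15.8 ± 4.83 CPM per kilobase, and its group means remained well below those of SLC7A5. The 2 genes came closest in 72 h replicate 3, at 123 CPM for SLC7A8 and 190 CPM for SLC7A5.

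**Figure D4:**
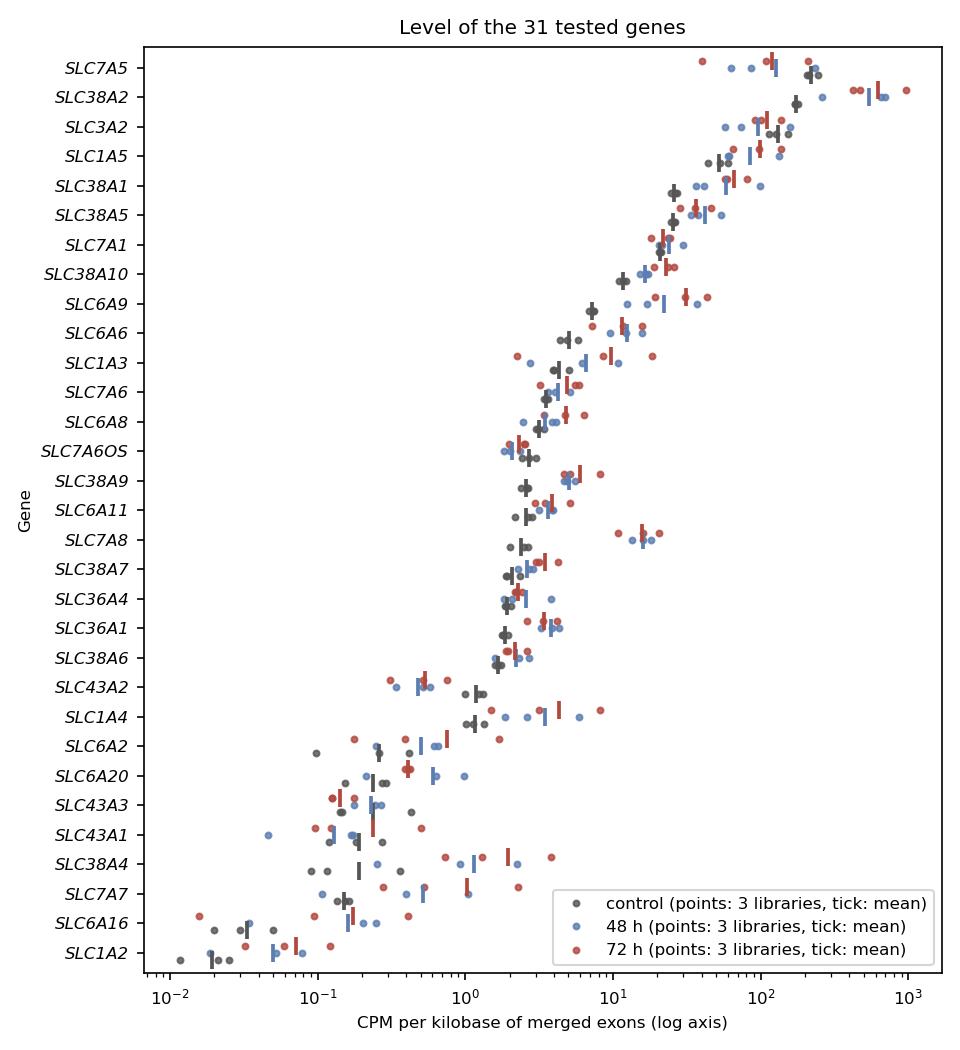
CPM per kilobase of merged exons, on a log axis, for the 31 tested genes in controls, at 48 h and at 72 h, with a point for each library and a tick at each group mean. In controls SLC7A5 (mean 220) is above SLC38A2 (174), and in treated libraries SLC38A2 (538 and 619) is above SLC7A5 (128 and 119).

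The make-up of the set shifted in every treated library. SLC38A2 took 23.6% to 25.7% of the summed CPM per kilobase in controls, then 45.5%, 40.2% and 61.7% at 48 h and 46.8%, 36.1% and 66.7% at 72 h. SLC7A5 and SLC3A2 together took 48.2%, 51.8% and 48.8% in controls, 25.5%, 22.1% and 12.8% at 48 h and 19.7%, 29.7% and 9.80% at 72 h. Neither share overlapped between treated and control libraries. The shares add up to a common total and are not independent: in 48 h replicate 1, where SLC7A5 and SLC3A2 were at 1110 and 816 CPM, both above the control of the same passage, their share was lower than in controls while SLC38A2 was at 4612 CPM. The ratio of SLC7A5 to its heavy chain SLC3A2 per kilobase was 1.81, 1.61 and 1.66 in controls, 1.48, 1.5 and 0.855 at 48 h and 1.20, 1.52 and 0.396 at 72 h, and among treated libraries it was lowest in those of passage 8. Summed over all 59 genes the level was 3749 to 4249 CPM in controls, 9258, 3922 and 6692 CPM at 48 h and 6153, 6871 and 9211 CPM at 72 h. The 48 h library of passage 13 lay within the control range.

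Treated libraries of 1 time differed from one another, and the 31 genes were sorted by which replicate had the highest CPM at 48 h and which at 72 h. This sorting was made after the values were seen and carries no test. For 8 genes (25.8%) the CPM of replicate 1 was highest at 48 h and replicate 2 at 72 h, as for 8.31% of all tested genes: SLC1A4, SLC1A5, SLC38A1, SLC38A10, SLC3A2, SLC6A8, SLC7A1 and SLC7A5. Relative to the control of the same passage, with 0.5 CPM added, SLC7A5 changed by 0.19, -1.5 and -1.75 (log2) at 48 h and by -0.91, -0.23 and -2.40 at 72 h. For SLC1A4 the values were 2.32, 1.32 and 0.47 at 48 h and 1.44, 2.93 and 0.16 at 72 h. SLC38A10, which passed at both times, lay between 0.36 and 1.24.

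For 11 genes (35.5%) the CPM of replicate 3, of passage 8, was highest at both times, as for 21.4% of all tested genes. They were SLC1A2, SLC1A3, SLC36A4, SLC38A4, SLC38A6, SLC38A9, SLC43A3, SLC6A2, SLC6A6, SLC7A7 and SLC7A8. SLC7A7 changed by 0.92, -0.19 and 2.19 against its own control at 48 h and by 1.25, 0.68 and 3.25 at 72 h, whereas SLC7A8 changed by 2.64, 2.70 and 2.74 and by 2.65, 2.39 and 2.91. The other 12 genes fell into 5 further patterns of 1 to 4 genes. Each pattern rests on 1 library per passage and time. Of the 31 genes, 13 (41.9%) had their highest treated value in 72 h replicate 3, the library with the high MALAT1 share, as did 29.4% of all tested genes. The part of that library's composition in these values was not tested beyond leaving it out.

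**Figure D5:**
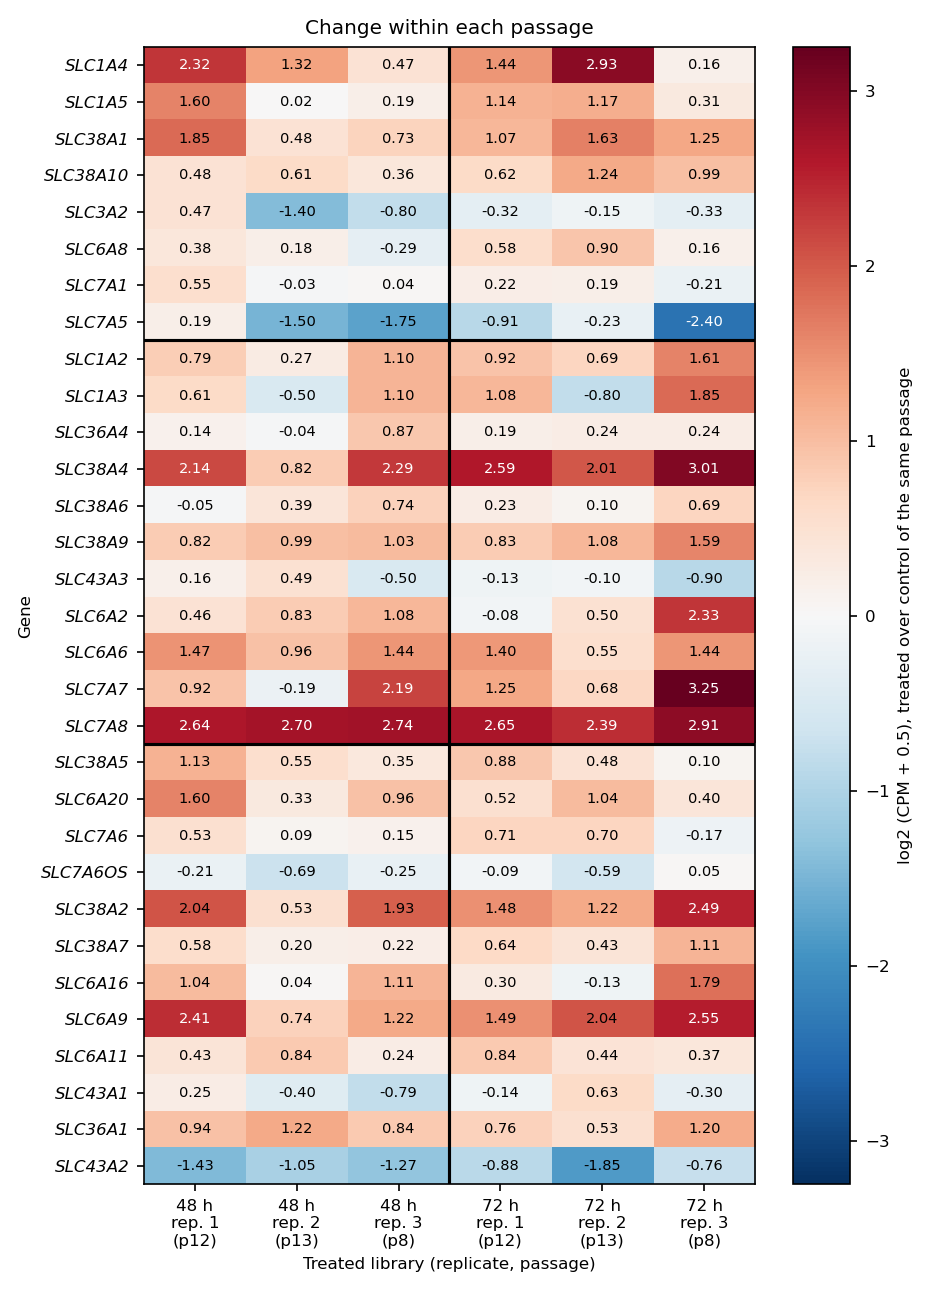
Log2 ratio of each treated library to the control of the same passage (0.5 CPM added to both) for the 31 tested genes, with the value written in each cell. Red is higher and blue lower than control. Horizontal lines set off the 8 genes whose CPM was highest in 48 h replicate 1 and 72 h replicate 2, the 11 genes highest in replicate 3 at both times, and the other 12. SLC7A5 ranges from -2.40 to 0.19, while SLC7A8 stays between 2.39 and 2.91.

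Other genes of amino acid supply were read from 4 lists. Of 26 genes of the amino acid response driven by ATF4, 1 rose and 3 fell at 48 h, and 3 rose and 2 fell at 72 h, with medians of -0.24 and 0.47. Over all tested genes 14.9% rose and 16.0% fell at 48 h, and 20.4% and 19.4% at 72 h, and these shares apply to each of the 4 lists. JDP2, a repressor of the AP-1 family, rose from 6.99, 7.79 and 7.52 CPM to 57.5, 23.3 and 21.7 CPM at 48 h and 41.8, 75.1 and 41.3 CPM at 72 h (2.20 ± 0.41, adjusted p = 0.00532, and 2.83 ± 0.42, adjusted p = 0.00144). ATF3, an early stress transcription factor, fell from 79.6, 89.8 and 98.5 CPM to 13.7, 7.23 and 24.2 CPM and then 7.44, 9.06 and 12 CPM (-2.58 ± 0.38, adjusted p = 0.00225, and -3.23 ± 0.39, adjusted p = 0.000732). PPP1R15A, which ends the stress block on translation, also fell at both times (-1.38 ± 0.24, adjusted p = 0.00325, and -1.06 ± 0.24, adjusted p = 0.00683). These 6 calls were kept without any 1 library. Without replicate 1 of every group the 48 h call of ATF3 (adjusted p = 0.0544) and the 72 h call of PPP1R15A (0.0586) were lost. The stress factor gene DDIT3 fell at 48 h (-1.46 ± 0.37, adjusted p = 0.0183), and TRIB3, an inhibitor of ATF4, rose at 72 h (1.6 ± 0.46, adjusted p = 0.0234). Both were named after their values were seen. The DDIT3 call was lost without control replicate 2 (0.0671) or 3 (0.0501) or 48 h replicate 2 (0.0595) or 3 (0.0596), and the TRIB3 call with no filter on low counts (0.113) and without any 1 control (0.0848, 0.0538 and 0.0686).

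NUPR1 had 0 to 0.215 CPM in controls, 5.19, 0.123 and 0.652 CPM at 48 h and 1.01, 1.42 and 5.38 CPM at 72 h. It passed at 72 h with an adjusted p of 0.0467, and lost that call with no filter on low counts (0.188), with the replicate block (0.0847) and without any 1 control (0.133, 0.102 and 0.114), 48 h replicate 3 (0.0507), 72 h replicate 2 (0.0557) or 72 h replicate 3 (0.142). It passed at 48 h with DESeq2 (0.0284) and without 48 h replicate 2 (0.0345). Of the 26 genes of this list, 21 (80.8%) were highest among treated libraries in 72 h replicate 2, against 16.6% of all tested genes. None of the 26 was highest in 48 h replicate 1 (0, against 12.1% of all). Of the 31 transporter genes 5 (16.1%) were highest in 72 h replicate 2.

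A list of amino acid sensing toward mTORC1 also holds subunits of the complexes on that route and RPTOR of mTORC1 itself. Of its 29 tested genes 4 rose and 3 fell at 48 h, and 8 rose and 3 fell at 72 h, with medians of 0.03 and 0.19. CASTOR2, a relative of the arginine sensor CASTOR1, rose from 2.89, 3.49 and 2.51 CPM to 7.33, 6.74 and 6.52 CPM and then 5.02, 4.84 and 7.35 CPM (1.21 ± 0.24, adjusted p = 0.00534, and 0.95 ± 0.23, adjusted p = 0.0109). SEH1L, a subunit of the GATOR2 complex, fell from 165, 169 and 172 CPM to 98.1, 103 and 113 CPM and then 95.7, 96.6 and 78.2 CPM (-0.69 ± 0.12, adjusted p = 0.00338, and -0.91 ± 0.12, adjusted p = 0.000781). Both genes kept their calls without any 1 library. CASTOR2 lost both calls without replicate 1 of every group (0.0966 and 0.0807), and its 72 h call also without replicate 3 (0.0767). SEH1L lost its 48 h call without replicate 1 (0.0789) or replicate 2 (0.0663) of every group. ITFG2, a subunit of the KICSTOR complex, fell by 0.83 ± 0.19 (adjusted p = 0.0109) and by 0.88 ± 0.19 (adjusted p = 0.00635) on the log2 scale. Its 48 h call was lost without control replicate 1 (adjusted p = 0.0515).

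The Rag GTPases recruit mTORC1 to the lysosome, where SLC38A9 sits. RRAGB rose by 0.94 ± 0.31 (adjusted p = 0.0432) and 0.87 ± 0.31 (adjusted p = 0.0468), and each call was lost without any 1 control (0.0846 to 0.124 at 48 h and 0.0843 to 0.13 at 72 h). It was lost at 48 h also without 48 h replicate 1 (0.107) or 3 (0.137), and at 72 h without 48 h replicate 1 (0.0672) or 72 h replicate 3 (0.153), or with only the 2 groups compared in the fit (0.058). Named after their values were seen, RRAGA changed by 0.63 ± 0.14 and 0.65 ± 0.14 and RRAGC by 0.67 ± 0.16 and 0.72 ± 0.16, with adjusted p of 0.00994, 0.00635, 0.0114 and 0.00608, and all 4 of these calls were kept without any 1 library. RPTOR, the mTORC1 scaffold, was the third gene lower at 48 h (-0.41, adjusted p = 0.0253), and MIOS, of GATOR2, the third lower at 72 h (-0.57, adjusted p = 0.0207). The RPTOR call was lost with no filter on low counts (0.114) and without any 1 control (0.0604, 0.105 and 0.0505), 48 h replicate 1 (0.0898) or 48 h replicate 3 (0.0781), and the MIOS call without any 1 control (0.0571, 0.0613 and 0.0593).

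Of 23 tested amino acid enzymes, 3 rose and 1 fell at 48 h, and 4 rose and 2 fell at 72 h, with medians of 0.12 and 0.40. The balance at 48 h depended on the fit: 3 rose and 4 fell with the replicate block, 1 and 3 with no filter on low counts, and 3 and 3 with a filter of 1 CPM in 3 libraries. ARG2, the mitochondrial arginase, rose from 9.22, 10.6 and 10.7 CPM to 21.2, 37.6 and 34.3 CPM and then 39.3, 41.7 and 60.2 CPM (1.6 ± 0.24, adjusted p = 0.00188, and 2.21 ± 0.24, adjusted p = 0.000418), with both calls kept without any 1 library. ASS1, which makes the arginine precursor argininosuccinate, rose from 8.86, 9.13 and 17.1 CPM to 187, 39.5 and 49 CPM and then 57.7, 238 and 69.9 CPM (2.98 ± 0.78, adjusted p = 0.0223, and 3.39 ± 0.80, adjusted p = 0.0109). With no filter on low counts both calls were lost (0.107 and 0.0602). Its 48 h call was lost in the fit with the block (0.067) and without control replicate 1 (0.0808), control replicate 2 (0.0831) or 48 h replicate 1 (0.0698).

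ODC1, which makes the polyamine putrescine from ornithine, rose by 1.35 ± 0.43 (adjusted p = 0.0397) and 1.61 ± 0.43 (adjusted p = 0.0165). Both calls were lost with no filter on low counts (0.192 and 0.0983). The 48 h call was lost without any 1 control (0.08, 0.13 and 0.108), 48 h replicate 1 (0.0921), 48 h replicate 2 (0.123) or 72 h replicate 1 (0.0523), and its 72 h call without control replicate 2 (0.0656), control replicate 3 (0.0548) or 72 h replicate 2 (0.0516). GOT1, the cytosolic aspartate aminotransferase, fell by 0.51 ± 0.13 (adjusted p = 0.0176) and by 0.49 ± 0.13 (adjusted p = 0.0155). Its 48 h call was lost without control replicate 1 (0.0585), control replicate 2 (0.0637), 48 h replicate 1 (0.0584) or 48 h replicate 2 (0.0568), and its 72 h call without control replicate 1 (0.0515) or 2 (0.0555). GOT2, the mitochondrial partner of GOT1, was the second gene lower at 72 h (-0.56, adjusted p = 0.0236). It lost that call without control replicate 2 (0.0923) or 3 (0.0638), passed at 48 h with the replicate block (0.0393), and was named after its value was seen.

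Of 7 tested carriers of amino acids and peptides outside the 7 prefixes, 1 rose and 1 fell at 48 h and 4 rose at 72 h, with medians of 0.20 and 0.51. PQLC2, the lysosomal exporter of cationic amino acids, rose at 72 h (0.79 ± 0.18, adjusted p = 0.00687), a call kept without any 1 library. It was lost without replicate 1 of every group (0.0857). CTNS, the lysosomal cystine exporter, changed by 0.55 ± 0.17 at both times (adjusted p = 0.0348 and 0.0271). Both calls of CTNS were lost without any 1 control (0.0671, 0.112 and 0.115 at 48 h, and 0.0525, 0.0893 and 0.0931 at 72 h). The 48 h call was lost also without 48 h replicate 1 (0.13) or 2 (0.0974), and the 72 h call without 72 h replicate 3 (0.0528).

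SLC15A3, a lysosomal peptide carrier, went from 2.47, 2.36 and 2.58 CPM to 25.7, 4.66 and 47.8 CPM at 48 h and 28.6, 10.1 and 198 CPM at 72 h. It rose at 72 h by 4.99 ± 1.27 (adjusted p = 0.0154), was highest in passage 8, and passed at 48 h with the replicate block (adjusted p = 0.0486, against 0.0651). Its 72 h call was lost with no filter on low counts (0.0794) and without any 1 control (0.0572, 0.0587 and 0.0535), and it passed at 48 h with DESeq2 (0.0118), with only the 2 groups compared (0.0238) and without 48 h replicate 2 (0.0458), 72 h replicate 2 (0.0343) or 72 h replicate 3 (0.0209). SLC15A2, a peptide carrier of the cell surface, changed by -0.79 ± 0.26 at 48 h (adjusted p = 0.0419). That call was lost with upper-quartile factors (0.0569), with no filter (0.0908) and without any 1 control (0.106, 0.0559 and 0.14), 48 h replicate 1 (0.14), 48 h replicate 2 (0.115), 72 h replicate 1 (0.0517) or 72 h replicate 2 (0.0526). The fourth gene higher at 72 h, SLC15A4, was named after its value was seen (0.51, adjusted p = 0.0365). Its call was lost without control replicate 2 (0.115), control replicate 3 (0.129), 48 h replicate 1 (0.0539) or 72 h replicate 2 (0.107).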

How the data were processed

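Per the labels, total RNA was extracted with silica spin columns and a NEBNext Ultra RNA kit was used for the libraries. The deposited values are raw counts of reads per Ensembl gene on build hg38. STAR 2.5.2a, featureCounts 1.5.0-p1, FastQC 0.11.5 and bcl2fastq 2.17.1.14 are listed in the submitters' processing notes. Which annotation release and strand setting were used, and how multi-mapping reads were treated, is not given in the sources used here, so overlapping genes and near-identical copies may share reads. GENCODE 29 symbols were matched to 57895 of 58233 identifiers.

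The counts were fitted with edgeR 4.0.16 in R 4.3.3 (limma 3.58.1): TMM scaling, filterByExpr, robust glmQLFit over all 9 libraries in 1 group model (6 residual degrees of freedom), glmQLFTest, and Benjamini-Hochberg adjustment over 15440 genes at a threshold of 0.05. Standard errors are approximate, the log2 fold change divided by the square root of F. CPM are TMM-scaled. The script was tested on simulated data, in which it recovered 86.4% of 4-fold changes in each comparison with control, and 37.3% (48 h) and 29.9% (72 h) of 2-fold changes. Each simulation changed 67 genes 1.5-fold, 67 2-fold and 66 4-fold, a small part of the genes tested. In the real comparisons with control 31.0% (48 h) and 39.8% (72 h) of genes were called, so these recovery rates need not hold there. Chi-square values per degree of freedom between libraries of a group were 8.99 to 159 (genes with 20 counts or more). Each library was therefore kept as a sample of its own.

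Replicate numbers pair libraries because the labels give same-numbered libraries the same passage. Correlations of their deviations were 0.11, 0.078 and 0.12 between 48 h and control, 0.038, 0.11 and 0.1 between 72 h and control, and -0.025, 0.49 and 0.49 between 72 h and 48 h, and 8 of 9 libraries were nearest to their own number. A fit with the replicate block has 4 residual degrees of freedom.

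Alternatives were other scalings, 2 other filters, DESeq2 1.42.0, only the 2 groups compared, the block, and each library or replicate number left out. Members and lists were chosen with earlier results of these data known, and the application of the alternatives to the 4 lists was added after seeing the data. Genes named with full values are those past the threshold in either comparison with control, plus SLC3A2, SLC7A5, SLC7A6, SLC7A1, SLC1A5, SLC1A3, SLC43A1 and SLC6A14 whatever their result, and the first 4 of each list. List genes past the threshold at both times came first, then those past it at 1 time, each by size of change. Some genes counted in the totals are not reported here by name.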

Additional observations from a re-analysis of the deposited data

How the results depend on the processing

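None of the transporter genes named changed direction against control under any alternative while passing the test. Of their 25 calls against control, 12 were kept without any 1 of the 9 libraries, and 20 under all 7 other settings. Neither tally covers the fits without a whole replicate number. The only calls kept under all 19 alternatives were those of SLC7A8 at both times and of SLC38A9, SLC38A10 and SLC6A9 at 72 h. The number of transporter genes higher at 48 h (9) was 14 with no filter on low counts and 1 to 11 with libraries or replicate numbers left out, and the number lower was 0 to 1. At 72 h the number higher (14) was 5 to 15 and the number lower 0 to 1. The lowest number higher at 48 h, 1, came without replicate 1 of every group (passage 12). In that fit 4.89% of all tested genes were called at 48 h, where in the main fit 14.9% rose and 16.0% fell. The lowest number higher at 72 h, 5, came from the same fit, with 19.9% of all tested genes called against 39.8%. The 14 with no filter were among 55 transporter genes tested, with 13.4% of all genes called at 48 h. These counts are therefore not a result about the transporter genes alone. With the replicate block 11 were higher and 1 lower at 48 h, and 15 and 1 at 72 h. Calls between 72 h and 48 h were 0 throughout.

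Of the ATF4 list (4 genes called at 48 h, 5 at 72 h), 9 were called at 48 h when only the 2 groups compared were fitted. For the sensing list (7 and 11) this was 12, and for the enzymes (4 and 6) it was 8, or 7 with the replicate block. Of the other carriers (2 and 4), 1 was called at 48 h with upper-quartile factors and 1 with no filter. With no filter 1 ATF4 gene and 1 sensing gene passed between 72 h and 48 h. With libraries left out the ranges at 48 h were 3 to 7, 0 to 9, 1 to 8 and 0 to 3 for the ATF4, sensing, enzyme and other carrier lists, and at 72 h 3 to 6, 2 to 15, 2 to 8 and 0 to 4. The cause was not tested. Adjusted p-values of single genes under the settings that ended their call stand beside those genes. They do not cover every fit without a whole replicate number, which ended further calls. Calls gained with no filter on low counts included those of SLC1A2 at 48 h (0.0429) and of SLC38A5, SLC7A6 and DDIT3 at 72 h (0.0141, 0.04 and 0.00439). With only the 2 groups compared TRIB3 and GOT2 passed at 48 h (0.0422 and 0.0207), and GOT2 also with a filter of 1 CPM in 3 libraries (0.0445). Other scalings moved the median of all genes by at most 0.06 (log2).

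Depth limits the low genes: SLC1A2, SLC7A7 and SLC38A4 were under 1 CPM on average in controls.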
